A study of Mus musculus with 4 samples.

Results

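The DEAD and DEAH box RNA helicases are 53 protein-coding genes, chosen as every mouse gene whose symbol starts with Ddx or Dhx followed by a digit, of 55573 genes and 21980 protein-coding genes in the count table. There were 37 Ddx and 16 Dhx genes. Their RNA was measured by RNA immunoprecipitation sequencing (RIP-seq), in which RNA that stays with antibody-coated beads is converted to cDNA, amplified and sequenced. The Runx1 group comprised 2 libraries made with an antibody against RUNX1, a transcription factor needed for blood stem and progenitor cells to form in the embryo. The IgG group comprised 2 libraries made in the same way with IgG, which has no chosen target and measures the background of the procedure. All 4 libraries came from CD31+ cells, sorted by flow cytometry from the caudal region of wild-type C57BL/6 embryos at embryonic day 10. No input library was analysed here, and nothing in the labels says that replicates were separate pools of embryos. P-values here therefore reflect library-to-library spread, part or all of which may be technical.

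RNA helicases of this superfamily use ATP to unwind short RNA duplexes or to strip proteins from RNA. They act at each step of an RNA's life, from splicing in the nucleus and assembly of ribosomes in the nucleolus to export, translation, storage and decay in the cytoplasm. The DEAD and DEAH names spell, in amino acid letters, a motif of the ATP-binding core that takes part in ATP hydrolysis. DEAD box proteins bind a duplex and pry it open locally, whereas DEAH box proteins move along the RNA and pull on it, often under the control of partner proteins with a G-patch.

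No helicase RNA passed the test between antibodies. Of the 53 genes, 49 passed the filter on low counts, and edgeR called 0 of them higher and 0 lower in the Runx1 libraries (adjusted p under 0.05), where 0.306% and 0.339% of the 12401 genes tested were called. Adjusted p-values here are from edgeR's quasi-likelihood test with Benjamini-Hochberg adjustment over all 12401 genes unless another tool is named, and the smallest among helicases was 0.138. At an unadjusted p under 0.05 there were 7 higher and 2 lower helicases, 14.3% and 4.08% of those tested, beside 6.88% and 7.35% of all genes, or 18.4% in either direction beside 14.2%. After a correction for the length and base composition of transcripts, 0 helicases were called, beside 0.234% of all genes. limma-voom called 0 helicases, beside 0.823% of all genes higher and 0.968% lower. DESeq2 called 2 higher, Ddx46 and Ddx56, and 2 lower, Ddx3x and Ddx17, beside 1.98% and 2.77% of all genes, and gave no adjusted p for 17 of the 49.

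As a share of the library, the family was nearly alike under the antibodies. Helicase RNAs made up 0.589% and 0.590% of gene counts with the Runx1 antibody, against 0.569% and 0.548% with IgG. Each library detected 49 to 52 of the 53 genes. The median log2 fold change (Runx1 antibody over IgG) was 0.19 over the 49 helicases and 0.027 over all genes tested, and 31 of the 49 (63.3%) were above 0, as were 51.5% of all genes. Under scaling to the added spike-in RNAs the helicase median was -1.09 and that of all genes -1.25, which is 0.16 lower. This scaling multiplies all genes of a library alike, so the gap between the medians hardly depends on it and gives no separate support.

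The coding letters of the name-giving motif differ between members and do not by themselves settle the kind of helicase. Sequences are from the longest complete protein-coding transcript of each gene in GENCODE M21 (mm10), in the sense direction, with the motif's codons in capitals and 9 coding bases on each side. They are shown for 7 of the 9 genes with an unadjusted p under 0.05 (in Ddx17 and Dhx29 more than 1 in-frame match was found), for Ddx3y beside its X-linked relative, and for Dhx15 as a DEAH box member.
Ddx46: gttgttttaGATGAAGCAGACagaatgttt
Ddx56: ctggtggtaGATGAAGCTGACcttcttttt
Ddx18: ctggttattGATGAGGCTGACcgtatcttg
Ddx3x: ctggtgttaGATGAAGCTGACcggatgtta
Ddx3y: ttagtattgGATGAAGCTGATaggatgctg
Ddx28: atagtgctaGATGAAGTAGACacactgcta
Ddx52: ctggtagtaGATGAATCAGACaaactgttt
Dhx57: atcattgttGATGAAGTTCATgagaggaca
Dhx15: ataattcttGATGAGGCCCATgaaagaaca
The first 5 encode DEAD itself, whereas Ddx28 encodes DEVD, Ddx52 DESD, Dhx57 DEVH and Dhx15 DEAH. The Ddx3x and Ddx3y windows share 22 of 30 bases.

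Over the family, in-frame codons for DEAD were found in 28 of 37 Ddx genes and 1 of 16 Dhx genes, and in 0.747% of 21684 protein-coding genes with a complete coding sequence. Codons for DEAH were found in 8 Dhx genes and 1 Ddx gene (Ddx11), and in 0.337% of all those genes. Close variants of the motif made up most of the rest. DEVH was found in 4 Dhx genes and Ddx60, DEIH in Dhx9 and Dhx36, DECD in 3 Ddx genes including Ddx39 and Ddx39b, DEVD in Ddx21, Ddx28 and Ddx50, DESD in Ddx52, DECH in Ddx58 and Dhx58, and DEID, as an additional match, in Ddx39b. A match is a run of codons in frame and need not be the motif itself, and Dhx32 held 0 of the 9 forms searched. Ddx and Dhx genes had median log2 fold changes of 0.24 (34 tested) and 0.16 (15 tested), and 0 of either were called.

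**Figure D1:**
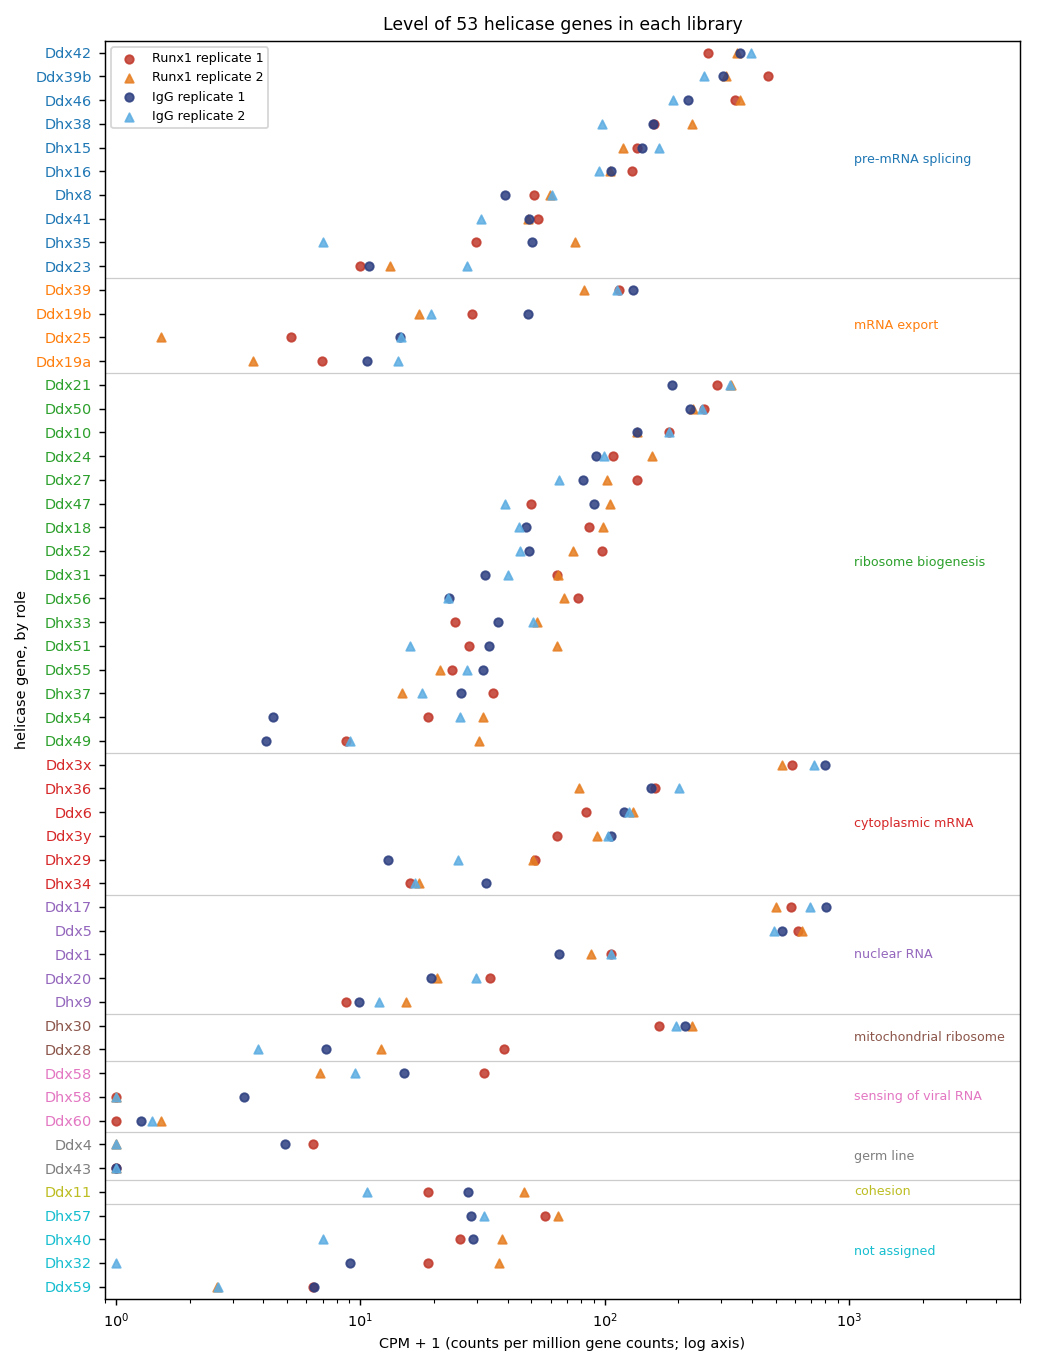
Level of each of the 53 helicase genes in CPM plus 1 (counts scaled to 1000000 gene counts per library), on a log axis, 1 point per library, with genes grouped by their first listed role and ordered by mean level within it. Most genes have overlapping points of the Runx1 and IgG libraries, and levels span from 0 (Ddx43) to 802 CPM (Ddx17 in IgG replicate 1).

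Levels are given in CPM, counts scaled to 1000000 gene counts per library, and 3 counts, taken as the floor of detection, equal 1.79 and 1.59 CPM in the Runx1 libraries and 0.781 and 1.21 CPM in the IgG libraries. Amplified cDNA carries no molecular identifiers named in the labels, so such floors cover counting error only. Per kb of transcript, Ddx5, Ddx3x, Ddx17 and Ddx39b were the most abundant family members by their means over the 4 libraries, at 160, 140, 136 and 117 CPM per kb. Their order was not the same under the antibodies. Ddx5 ranked 1 in both Runx1 libraries (173 and 180 CPM per kb), whereas Ddx3x ranked 1 in both IgG libraries (170 and 153 CPM per kb). Ddx50 and Ddx42 followed in every library except IgG replicate 2, where both ranked above Ddx39b, and Ddx21 ranked 7 in 3 of the 4. The ranges over the 4 libraries of neighbours in this order overlapped.

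Of the germ-line and antiviral genes, 4 did not pass the filter. Ddx43, a germ-line helicase, had 0 counts in all 4 libraries. Ddx4, the germ cell marker Vasa, had 9 and 0 counts with the Runx1 antibody, against 15 and 0 with IgG. Ddx60, a factor in the response to viral RNA, had 0 and 1 count with the Runx1 antibody, against 1 and 1 with IgG. Dhx58 (LGP2), a relative of RIG-I, had 0 and 0 counts with the Runx1 antibody, against 9 and 0 with IgG. Each was at or under 3 counts in at least 1 library of each antibody.

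Replicates of the same antibody differed by a median of 0.47 (log2, absolute) for helicases in the Runx1 libraries and 0.42 in the IgG libraries. Over all genes tested with counts in both replicates these medians were 0.57 and 0.48. A replicate difference over 2-fold was found for 14 of 49 helicases with the Runx1 antibody and for 13 of 48 with IgG. Among all such genes it was found for 3473 of 12053 and 3016 of 12152. Both Runx1 libraries lay above both IgG libraries for 14 of the 49 (28.6%, beside 24.1% of all genes tested) and below for 8 (16.3%, beside 21.3%), and the groups overlapped for 27.

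Splicing helicases were represented by 10 genes, all tested, of which 0 were called, 7 were above 0 and 3 below, with a median log2 fold change of 0.26. With length and GC content corrected for, the median of the splicing helicases was 0.0018. Ddx46, whose yeast counterpart Prp5 helps the U2 particle join the branch point, had 341 and 357 CPM in the Runx1 libraries, against 219 and 189 CPM in the IgG libraries. The replicates were close and the groups did not overlap. Its log2 fold change was 0.74 ± 0.19 (SE, 95% interval 0.31 to 1.18, edgeR adjusted p = 0.138, DESeq2 adjusted p = 0.0155, limma-voom adjusted p = 0.0866). Ddx46 was at 1.02 ± 0.19 after the length and GC correction (edgeR adjusted p = 0.0965), and without 1 library in turn it was at 0.63 to 0.84. Under the spike-in scaling Ddx46 was at -0.55, which is 0.70 above the median gene.

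The other abundant splicing helicases had intervals that included 0. Ddx42, which associates with the SF3b complex, had 263 and 347 CPM with the Runx1 antibody, against 358 and 397 CPM with IgG. Both Runx1 libraries were below both IgG libraries (log2 fold change -0.34, 95% interval -0.78 to 0.11, edgeR adjusted p = 0.506). Ddx39b, which acts in spliceosome assembly and, as part of the TREX complex, in export, had 464 and 312 CPM with the Runx1 antibody, against 304 and 253 CPM with IgG. The Runx1 libraries were above, the lower of them by a small step (0.45, 95% interval -0.057 to 0.95, edgeR adjusted p = 0.408). Ddx39b was at 0.18 after the length and GC correction, at 0.11 without Runx1 replicate 1 and at 0.69 without Runx1 replicate 2. Dhx38, the counterpart of yeast Prp16 in the catalytic steps, had 158 and 226 CPM with the Runx1 antibody, against 157 and 96.3 CPM with IgG. Its groups nearly touched (0.57, 95% interval -0.14 to 1.29, edgeR adjusted p = 0.472). Dhx15, the counterpart of yeast Prp43 that takes spent spliceosomes apart, had 134 and 118 CPM with the Runx1 antibody, against 141 and 165 CPM with IgG. Both Runx1 libraries were below both IgG libraries, by a small step (-0.30, 95% interval -0.89 to 0.28, edgeR adjusted p = 0.673). Ddx41, in which inherited variants predispose people to myeloid neoplasms, had 52.5 and 47.7 CPM with the Runx1 antibody, against 48.1 and 30.2 CPM with IgG. These groups overlapped (0.32, 95% interval -0.72 to 1.36, edgeR adjusted p = 0.829), and after the length and GC correction the value was -0.045.

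Ribosome biogenesis helicases, which assemble the subunits in the nucleolus, had the highest median of the roles with more than 4 tested genes. Of 16 genes, all tested, 0 were called, 13 were above 0 and 3 below, with a median log2 fold change of 0.56. At an unadjusted edgeR p under 0.05, 3 were higher and 0 lower, beside 6.88% and 7.35% of all genes tested. The median was 0.40 after the length and GC correction, 0.24 without Runx1 replicate 2, and -0.73 under the spike-in scaling, 0.53 above the median gene. Their summed level was 1466 and 1562 CPM in the Runx1 libraries, against 1083 and 1245 CPM in the IgG libraries. Ddx56, a factor of large subunit assembly, had 76.4 and 67.3 CPM with the Runx1 antibody, against 22.1 and 21.8 CPM with IgG. This was a 3.2-fold separation with no overlap (log2 fold change 1.68 ± 0.43, 95% interval 0.70 to 2.66, edgeR adjusted p = 0.140, DESeq2 adjusted p = 0.0178, limma-voom adjusted p = 0.0866). With 1 library left out in turn the log2 fold change of Ddx56 was 1.56 to 1.75, and after the length and GC correction it was 1.30 ± 0.43.

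Ddx18, the counterpart of yeast Has1, had 84.8 and 97.5 CPM with the Runx1 antibody, against 46.6 and 43.5 CPM with IgG. The groups were apart (log2 fold change 0.99 ± 0.36, edgeR adjusted p = 0.271). Ddx52, the counterpart of yeast Rok1, had 96.7 and 73.1 CPM with the Runx1 antibody, against 47.9 and 43.9 CPM with IgG. Its groups were also apart, and the 95% interval reached almost to 0 (0.86, 95% interval 0.0060 to 1.70, edgeR adjusted p = 0.348). Under the spike-in scaling Ddx18 was at -0.30 and Ddx52 at -0.42. The most abundant members of the role did not separate. Ddx21, which acts in transcription and processing of ribosomal RNA, had 286 and 328 CPM with the Runx1 antibody, against 188 and 324 CPM with IgG (0.24, 95% interval -0.37 to 0.84, edgeR adjusted p = 0.766). Ddx50, its neighbour and close relative on chromosome 10, had 254 and 228 CPM with the Runx1 antibody, against 223 and 249 CPM with IgG. All 4 values of Ddx50 lay within a narrow band (0.0015, 95% interval -0.45 to 0.45, edgeR adjusted p = 0.999). Of the other 11, log2 fold changes ran from -0.44 (Ddx55) to 1.73 (Ddx49). Ddx49 had 13 and 56 counts with the Runx1 antibody, against 12 and 20 with IgG, so its value rests on low counts.

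**Figure D2:**
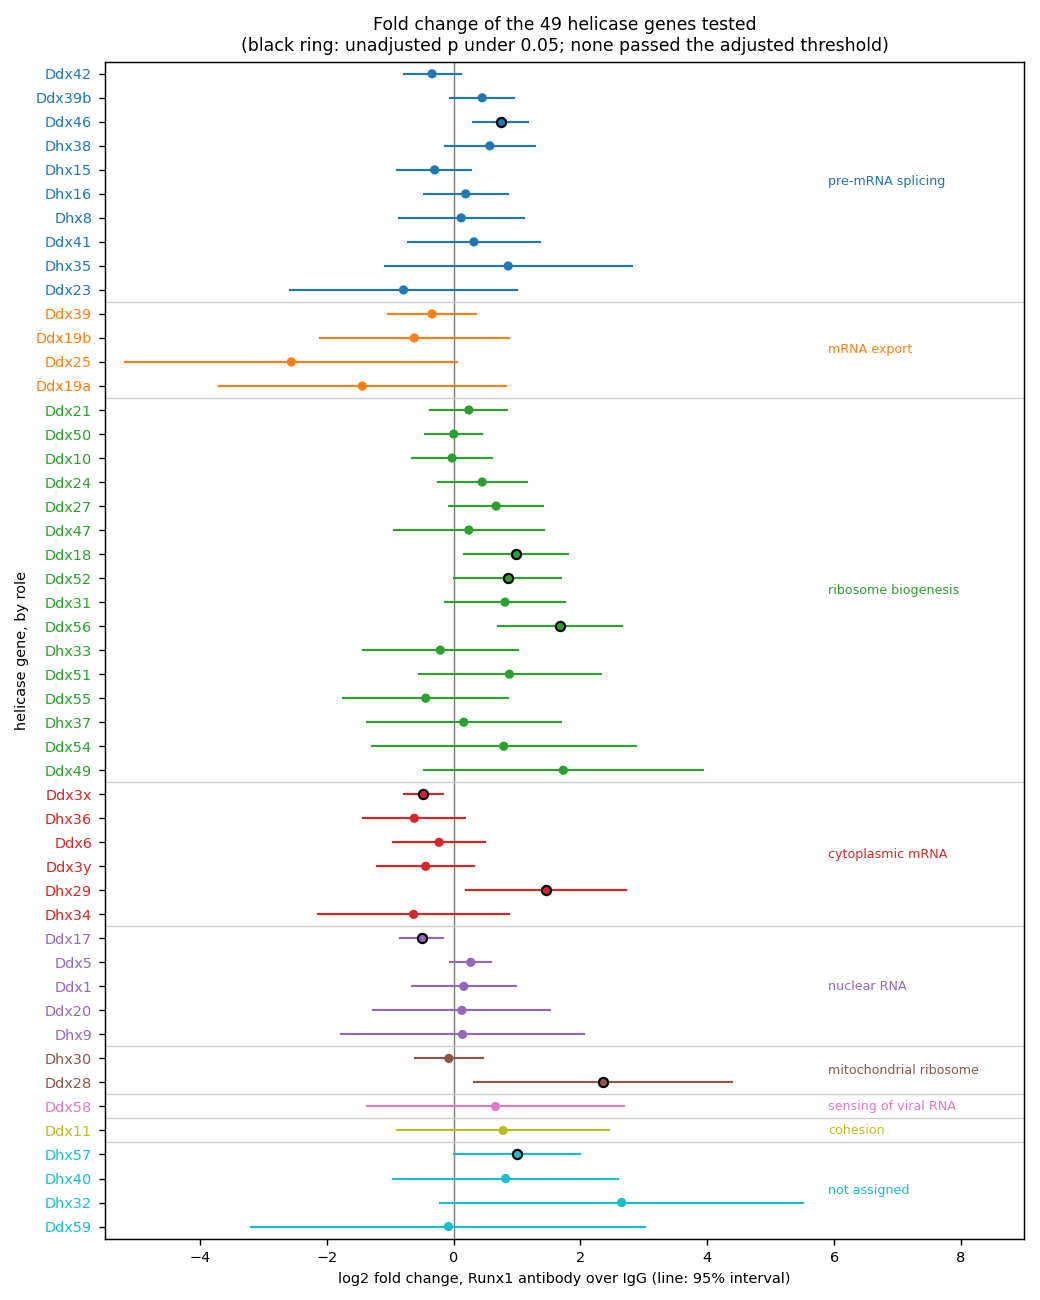
Log2 fold change (Runx1 antibody over IgG) of the 49 helicase genes tested, with the 95% interval of the edgeR fit as a line, grouped by first listed role. Of the 16 ribosome biogenesis genes 13 lie right of 0 and of the 6 cytoplasmic mRNA genes 5 lie left of it, and 9 genes in all have an unadjusted p under 0.05 (black rings).

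Helicases of translation, storage and decay in the cytoplasm had mostly negative values. Of 6 genes, all tested, 0 were called, 1 was above 0 and 5 below, with a median log2 fold change of -0.46. The median was -0.023 after the length and GC correction. Ddx3x, an X-linked factor that helps ribosomes start on structured messages, had 580 and 529 CPM in the Runx1 libraries, against 796 and 718 CPM in the IgG libraries. Both Runx1 libraries were below both IgG libraries. Its log2 fold change was -0.48 ± 0.14 (95% interval -0.79 to -0.16, edgeR adjusted p = 0.180, DESeq2 adjusted p = 0.0257, limma-voom adjusted p = 0.0914). A fit without Runx1 replicate 1 called Ddx3x lower (-0.57 ± 0.16, edgeR adjusted p = 0.0388), and fits without any other library did not (adjusted p = 0.154 to 0.494). With 1 library left in a group, the spread comes from the other pair alone, and the lone library is assumed to vary likewise, here and for every fit with a library left out. After the length and GC correction, Ddx3x was at -0.14 ± 0.14 (edgeR adjusted p = 0.780).

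Ddx3y, its Y-linked relative, had 62.7 and 92.2 CPM with the Runx1 antibody, against 105 and 102 CPM with IgG. The Runx1 libraries were again below, with a wider spread (-0.44, 95% interval -1.21 to 0.32, edgeR adjusted p = 0.633), and the value was 0.10 after the length and GC correction. Dhx36, which unwinds G-quadruplexes, had 159 and 77.4 CPM with the Runx1 antibody, against 154 and 201 CPM with IgG. Runx1 replicate 1 lay among the IgG values (-0.62, 95% interval -1.43 to 0.18, edgeR adjusted p = 0.486), and the value rests on which Runx1 library is used. Without Runx1 replicate 1 Dhx36 was called lower (-1.25 ± 0.35, edgeR adjusted p = 0.0339), without Runx1 replicate 2 it was at -0.21 (edgeR adjusted p = 0.828), and after the length and GC correction also at -0.21 (edgeR adjusted p = 0.877). Ddx6, which holds messages for decapping or storage in P bodies, had 82.4 and 129 CPM with the Runx1 antibody, against 119 and 125 CPM with IgG (-0.23, 95% interval -0.95 to 0.49, edgeR adjusted p = 0.824). The exception in sign was Dhx29, which binds the small ribosomal subunit and helps it scan structured leaders. It had 50.7 and 49.8 CPM with the Runx1 antibody, against 12 and 24.2 CPM with IgG, with no overlap (1.45 ± 0.56, 95% interval 0.19 to 2.72, edgeR adjusted p = 0.288). Dhx34, a factor of nonsense-mediated decay, was at -0.63 (95% interval -2.14 to 0.88).

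The paralogues Ddx5 and Ddx17, which act in transcription, splicing and microRNA processing, stood on opposite sides of 0. Ddx5 had 616 and 641 CPM with the Runx1 antibody, against 532 and 490 CPM with IgG (0.27, 95% interval -0.053 to 0.59, edgeR adjusted p = 0.447). Ddx17 had 576 and 500 CPM with the Runx1 antibody, against 802 and 689 CPM with IgG. The groups overlapped for neither gene. The log2 fold change of Ddx17 was -0.50 ± 0.15 (95% interval -0.84 to -0.16, edgeR adjusted p = 0.190, DESeq2 adjusted p = 0.0283, limma-voom adjusted p = 0.0997). Without Runx1 replicate 1, with the spread from the IgG pair alone, Ddx17 was called lower (-0.63 ± 0.17, edgeR adjusted p = 0.0250). Without any other library it was not (edgeR adjusted p = 0.169 to 0.529), and after the length and GC correction it was at -0.44 ± 0.15 (edgeR adjusted p = 0.306). The difference between the paralogues was not tested.

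Dhx9 (RNA helicase A), which works on structured RNA in the nucleus, had low counts throughout, 13 and 27 in the Runx1 libraries, against 34 and 27 in the IgG libraries. These are 7.76 and 14.3 CPM with the Runx1 antibody, against 8.85 and 10.9 CPM with IgG, under the median of 29.2 CPM over all genes tested. Its interval of -1.78 to 2.06 on the log2 scale (0.14, edgeR adjusted p = 0.973) is wide, and a difference within it was not detectable for Dhx9 at this depth. The other nuclear members were Ddx1, which joins the tRNA ligase complex (0.16, 95% interval -0.66 to 0.98), and Ddx20, a part of the SMN complex (0.13, 95% interval -1.27 to 1.52).

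Export helicases had 1 of 5 genes above 0 and a median log2 fold change of -0.62, and 0 were called. The lowest was Ddx25, known for its role in male germ cells, at 4.18 and 0.53 CPM with the Runx1 antibody, against 13.5 and 13.7 CPM with IgG. These rest on 7 and 1 counts with the Runx1 antibody, against 52 and 34 with IgG (-2.56 ± 1.15, 95% interval -5.18 to 0.059, edgeR adjusted p = 0.362). The Runx1 libraries were both lower but far apart from each other, and Ddx25 passed the filter through the IgG libraries alone. Ddx19a (-1.44) and Ddx19b (-0.62), which release export factors at the nuclear pore, share a stretch of 258 bases at 97.7% identity, so reads from that stretch could have been split between them. Ddx39 was at -0.34 (95% interval -1.03 to 0.36).

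Of the mitochondrial ribosome factors, Dhx30 was near 0 and Ddx28 above it, and neither was called. Dhx30 had 166 and 227 CPM in the Runx1 libraries, against 211 and 195 CPM with IgG (-0.075, 95% interval -0.61 to 0.46, edgeR adjusted p = 0.938). Ddx28 had 37.6 and 11.1 CPM with the Runx1 antibody, against 6.24 and 2.82 CPM with IgG, without overlap but with replicates more than 2-fold apart on both sides. These rest on 63 and 21 counts with the Runx1 antibody, against 24 and 7 with IgG. The log2 fold change of Ddx28 was 2.36 ± 0.90 (95% interval 0.32 to 4.39, edgeR adjusted p = 0.286), and without Runx1 replicate 1 it was 1.22 ± 1.45. Ddx58 (RIG-I), the sensor of viral RNA, had 31.0 and 5.83 CPM with the Runx1 antibody, against 14.1 and 8.46 CPM with IgG. The Runx1 replicates lay on either side of the IgG libraries (0.66, 95% interval -1.36 to 2.69, edgeR adjusted p = 0.816), and without Runx1 replicate 1 the value was -1.0. Ddx11, which acts on DNA in sister chromatid cohesion, had 17.9 and 45.6 CPM with the Runx1 antibody, against 26.5 and 9.67 CPM with IgG (0.78, 95% interval -0.90 to 2.45, edgeR adjusted p = 0.715).

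No role was assigned to 4 members, which had a median log2 fold change of 0.91 and 0 called. Dhx57 had 56.1 and 63.1 CPM with the Runx1 antibody, against 27.3 and 31.0 CPM with IgG. Replicates were close and the groups apart (1.00 ± 0.44, 95% interval 0.0072 to 2.00, edgeR adjusted p = 0.348). Dhx32 had 30 and 68 counts with the Runx1 antibody, against 31 and 0 with IgG (2.65, 95% interval -0.22 to 5.51, edgeR adjusted p = 0.388). Without IgG replicate 1, which leaves IgG at 0 counts, Dhx32 was called higher (edgeR adjusted p = 0.00297). In that fit 0.847% of all genes were called higher, and without Runx1 replicate 1, where Ddx3x, Ddx17 and Dhx36 were called, 2.48% of all genes were called lower.

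**Figure D3:**
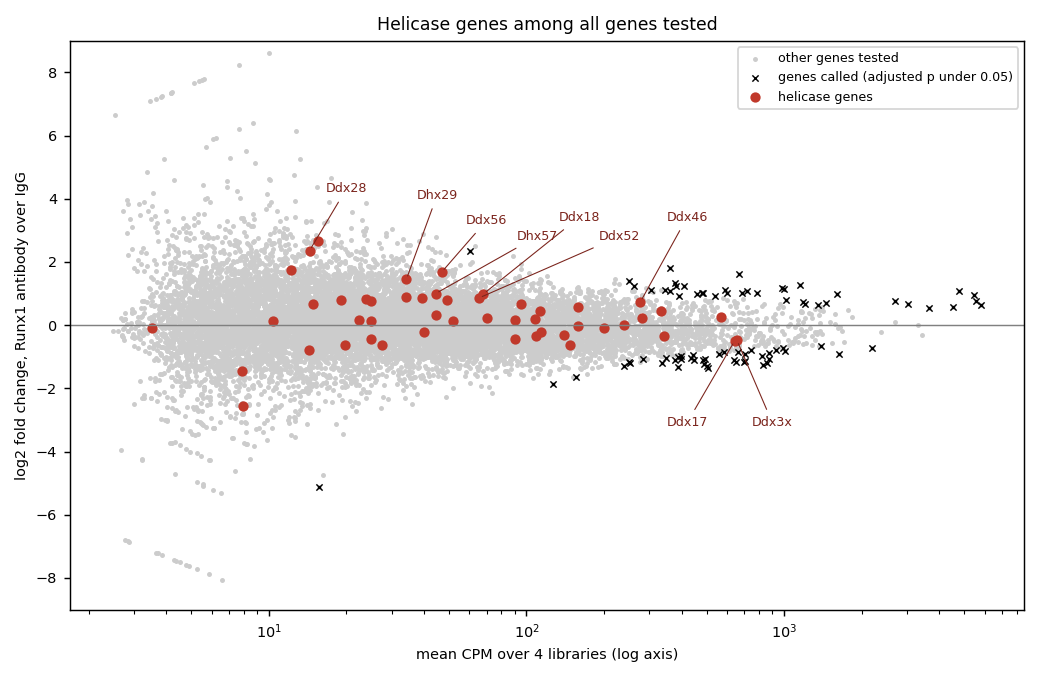
Log2 fold change (Runx1 antibody over IgG) against mean level (CPM over the 4 libraries, log axis) for all 12401 genes tested, with helicases in red, called genes as crosses, and the 9 helicases with an unadjusted p under 0.05 named. Of the 80 called genes 78 have a mean of at least 100 CPM, as have 17 of the helicases, and 0 of the called genes are helicases.

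Standard errors were small for the most abundant helicases (0.14 for Ddx3x and Ddx5) and large for rare ones (1.15 for Ddx25 and 1.36 for Ddx59). For 13 of the 49 helicases the 95% interval lay within 2-fold in either direction, among them Ddx3x, Ddx5, Ddx17, Ddx21, Ddx42, Ddx50, Ddx39b and Dhx15. That count depends on the estimate as well as on its precision. Ddx46, with an SE of 0.19 and an interval of 0.31 to 1.18, was not among them. For 23 the interval was more than 2 log2 units wide. Over the 49, the rank correlation of log2 fold change was -0.29 with transcript length and 0.28 with GC content, and over the 12396 genes with an annotated transcript -0.26 and 0.25. Genes share the same 4 libraries, so these are descriptions only. Helicase transcripts had a median length of 3836 bases and 50.1% GC, and all genes 3202 bases and 49.2%.

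**Figure D4:**
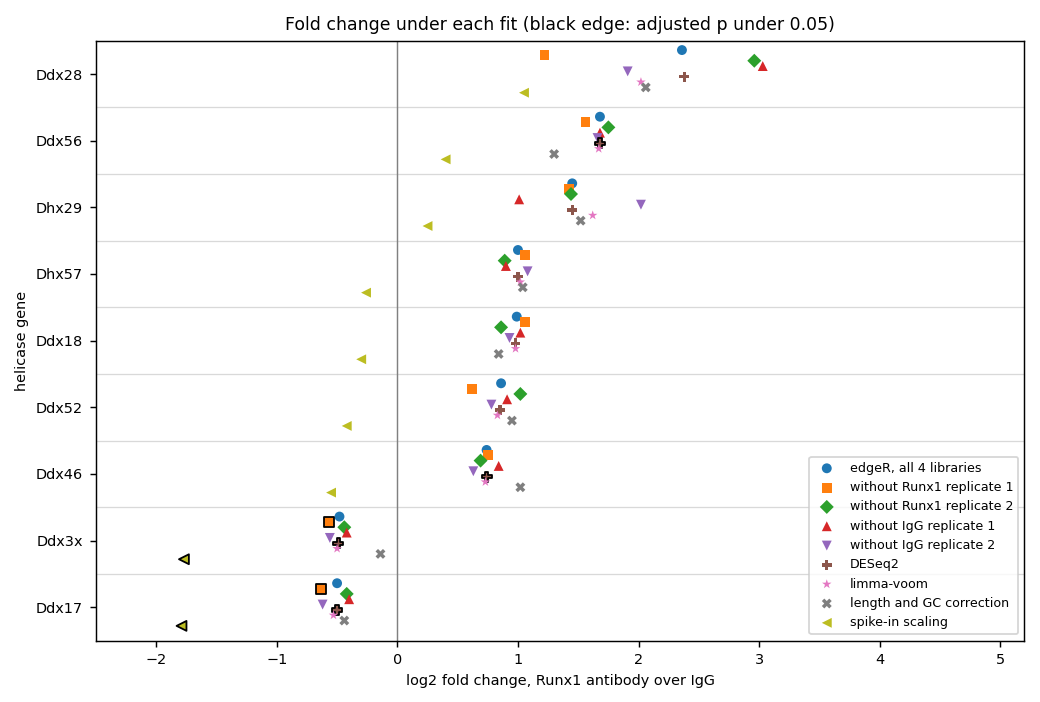
Log2 fold change (Runx1 antibody over IgG) of the 9 helicases with an unadjusted p under 0.05, under edgeR with all 4 libraries, with each library left out, under DESeq2 and limma-voom, after the length and GC correction and under the spike-in scaling. Ddx46, Ddx3x and Ddx17 vary little between edgeR with all 4 libraries or with a library left out, DESeq2 and limma-voom. The length and GC correction brings Ddx3x to -0.14 and Ddx46 to 1.02, and the spike-in scaling shifts all 9 down.

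Scaling to the spike-in RNAs, of which 596 and 713 counts were recovered in the Runx1 libraries, against 494 and 434 in the IgG libraries, moved the median of all genes tested to -1.25 and called 15 helicases lower (30.6%, beside 31.6% of all genes). They included Ddx3x at -1.77, Ddx17 at -1.79, Dhx36 at -1.86, Ddx42 at -1.61 and Dhx15 at -1.56. Set against that median of all genes, Ddx3x was at -0.51 and Ddx17 at -0.54. These are close to their values without this scaling, since it multiplies all genes of a library alike. The 5 helicases above 0 in it were Dhx32 (1.2), Ddx28 (1.05), Ddx49 (0.52), Ddx56 (0.40) and Dhx29 (0.25), none of them called.

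Genes that work with these helicases were tested in the same fit. Of 87 partner genes tested in 8 lists, 0 were called higher and 0 lower. Among RNA helicases of the superfamily with other symbols, 16 were tested, 11 above 0, with a median log2 fold change of 0.41. The initiation helicase Eif4a1 had 185 and 256 CPM with the Runx1 antibody, against 112 and 134 CPM with IgG (0.82 ± 0.26, edgeR adjusted p = 0.212). The exon junction helicase Eif4a3 was at 0.60 ± 0.26, the mitochondrial helicase Supv3l1 at 1.96 ± 0.82 and Dicer1, which cuts microRNA precursors, at -0.63 ± 0.20 (edgeR adjusted p = 0.210). G-patch proteins had a median of 0.15 over 18 genes, 11 above 0, with Sugp1 at 1.82 ± 0.53 (edgeR adjusted p = 0.180), Rbm10 at 1.1 ± 0.34, Gpatch4 at 1.07 ± 0.34 and Tfip11, a partner of Dhx15, at 2.01 ± 0.69.

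Proteins of the eIF4G kind and related partners of DEAD box helicases had a median of 0.061 over 11 genes. Of these, Eif4b was at -0.42 ± 0.11 (edgeR adjusted p = 0.163) and Eif4g2 at -0.28 ± 0.10. The decapping and storage complexes around Ddx6 had a median of 0.053 over 12 genes. Their enzyme Dcp2, which removes the cap, had the smallest adjusted p of any partner, with 502 and 498 CPM with the Runx1 antibody, against 887 and 778 CPM with IgG. The groups were well apart (-0.76 ± 0.14, edgeR adjusted p = 0.0566). The TREX and exon junction genes had a median of 0.14 over 16 genes and the SMN complex -0.31 over 8 genes, among them Strap at -0.68 ± 0.29. The microprocessor genes Drosha and Dgcr8 had a median of -0.052 and the tRNA ligase genes that work with Ddx1 -0.073 over 4 genes.

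Sequencing depth was 1675488 and 1887301 gene counts in the Runx1 libraries, against 3843318 and 2482045 in the IgG libraries. All 10 endothelial markers were detected in every library, with sums of 1509 and 1202 CPM with the Runx1 antibody, against 1531 and 1422 CPM with IgG. Pecam1, which encodes CD31, had 93.1 and 103 CPM with the Runx1 antibody, against 99.9 and 79.4 CPM with IgG. The 7 erythroid markers summed to 850 and 849 CPM with the Runx1 antibody, against 482 and 450 CPM with IgG. Sums of the 6 macrophage markers were 96.1 and 218 CPM in the Runx1 libraries, against 90.5 and 79.0 CPM in the IgG libraries, and those of the 5 neural markers 556 and 494 CPM with the Runx1 antibody, against 370 and 357 CPM with IgG. The 7 mesenchymal markers summed to 919 and 895 CPM with the Runx1 antibody, against 961 and 905 CPM with IgG, and the 7 blood stem and progenitor markers to 110 and 191 CPM with the Runx1 antibody, against 201 and 190 CPM with IgG. The 4 epithelial markers summed to 152 and 149 CPM with the Runx1 antibody, against 148 and 104 CPM with IgG. The 4 megakaryocyte markers summed to 12.5 and 17.5 CPM with the Runx1 antibody, against 2.34 and 2.42 CPM with IgG, with Gp1bb at 0 in every library. Both Runx1 libraries were above both IgG libraries in the erythroid, macrophage, neural, epithelial and megakaryocyte sums. Of the macrophage markers C1qa was at 7.16 and 14.3 CPM with the Runx1 antibody, against 0 in both IgG libraries. Cd68 went the other way, at 0 in both Runx1 libraries, against 1.04 and 4.83 CPM with IgG. For Csf1r, Adgre1, Cx3cr1 and Mrc1 the groups overlapped. Most of the macrophage sum in Runx1 replicate 2 was Csf1r, at 144 CPM there, against 11.9 CPM in Runx1 replicate 1. Of the 50 markers, Tbx15 of the mesenchyme was called, as lower (edgeR adjusted p = 0.0490), and 0 others. Their part in the helicase values was not tested. In such libraries the number of cells of a type, RNA per cell and the share of RNA recovered cannot be told apart.

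In the mm10 (GRCm38) annotation Ddx46 lies on chromosome 13 (55635027 to 55681256), Ddx56 on chromosome 11 (6258919 to 6267772), Ddx18 on chromosome 1 (121553835 to 121567989), Ddx52 on chromosome 11 (83942062 to 83963088) and Ddx28 on chromosome 8 (106009621 to 106011882). Dhx29 lies on chromosome 13 (112927454 to 112969432), Dhx57 on chromosome 17 (80238309 to 80290476), Ddx3x on chromosome X (13280970 to 13294052), Ddx3y on chromosome Y (1260771 to 1286629) and Ddx17 on chromosome 15 (79527736 to 79546741). Exons of 14 members overlap those of another gene, 12 of them a gene of the opposite strand. Among these are Ddx17 with Kdelr3, Ddx28 with Dus2, Dhx57 with Morn2, and Dhx32 with Bccip. Near-identical stretches elsewhere in the genome were found for 6 members, Ddx18, Ddx21, Ddx5, Ddx50 and, with each other, Ddx19a and Ddx19b. The copies of the first 4 are processed pseudogenes with at most 13 counts in a library. The values of members that overlap or share a stretch are uncertain to the extent that reads could be shared. No source used here states whether counting used strand.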

How the data were processed

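RIP-seq counts of 4 libraries, 2 per antibody, were analysed, with groups and replicate numbers from the sample titles. The authors deposited whole-number counts per Ensembl gene, not normalized, in 1 table. The tools named are Salmon 1.1.0, STAR 2.7.3a and Trimmomatic 0.36, with the mm10 build, per the submitters' processing notes, and the step each served is not stated. The annotation, the strand setting and whether counts are reads or rounded estimates were not given in the sources used here. Of 55573 genes, 55480 were found in GENCODE M21, and the 92 spike-in rows stayed out of library sizes and tests. The partner symbol Zc3h11a has several gene IDs, of which the one with the most counts was used.

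edgeR 4.0.16 in R 4.3.3 was run over all genes (TMM, quasi-likelihood test, two-sided, Benjamini-Hochberg at 0.05). Standard errors are those implied by the test statistic. The filter was filterByExpr at its defaults, a minimum count of 10 and 15 counts in total. The minimum count is applied as CPM at the median library size and must be reached in at least 2 libraries of any antibody. Alternatives were DESeq2 1.42.0, limma-voom (limma 3.58.1), other scalings and filters, a false discovery rate of 0.1, a replicate block, leaving out each library, thinning to the smallest library, and offsets for transcript length and GC content (natural splines, 5 degrees of freedom). The test was checked on simulated data. Copies were sought with blastn 2.17.0 (at least 200 bases at 95% identity).

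Levels in all 4 libraries are given for 25 members by rule. These are the 10 most abundant, the most abundant of each role, those with an unadjusted p under 0.05, and a fixed set. Fold changes of partners are given for up to 4 per list by p, with levels for Eif4a1 and Dcp2. Members named outside that rule were chosen after their values were seen. The forms DESD, DEIH and DEVH of the coding motif were added after the first search. The members and lists were chosen with earlier results of these data known.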

Additional observations from a re-analysis of the deposited data

How the results depend on the processing

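With all 4 libraries in edgeR, helicase calls stayed at 0 under DESeq2 size factors, library totals alone, no filter, the strict filter (10 counts in every library), the replicate block, thinning, the length and GC correction and a false discovery rate of 0.1. They moved to 15 lower under the spike-in scaling and to 2 higher and 2 lower with DESeq2. With a library left out the calls ran from 0 to 1 higher and 0 to 3 lower. The helicase median was 0.10 to 0.27 under all alternatives but the spike-in scaling (-1.09).

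Over all genes, 38 were higher and 42 lower. The counts were 19 and 3914 under the spike-in scaling, 224 and 325 with no filter, 125 and 160 with the strict filter, 246 and 344 with DESeq2, and 102 and 120 with limma-voom. With the length and GC correction they were 23 and 6, and 57 and 73 after thinning, 106 and 124 at a false discovery rate of 0.1, 94 to 248 and 80 to 352 with a library left out. Partner calls were 0 and 0 with all libraries in edgeR, 0 and 31 under the spike-in scaling, 1 and 1 with no filter, 3 and 3 with DESeq2, and 0 to 3 in each direction with a library left out. There was 1 lower partner with the strict filter, limma-voom, thinning or a false discovery rate of 0.1.

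The replicate block gave 2 higher and 0 lower genes, or 11 and 1 together with the length and GC correction. Nothing in the labels pairs the libraries, and deviations of same-numbered libraries had a correlation of 0.0044 over 12401 genes.

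Spike-in scaling, which multiplies all genes of a library alike, moved the median of all genes tested to -1.25, against 0.027 with TMM. With that shift the 13 named helicases that turned from above to below 0 were at -0.61 (Ddx11), -0.30 (Ddx18), -0.99 (Ddx21), -0.84 (Ddx39b), -1.0 (Ddx41), -0.55 (Ddx46), -1.02 (Ddx5), -1.26 (Ddx50), -0.42 (Ddx52), -0.63 (Ddx58), -0.77 (Dhx38), -0.26 (Dhx57) and -1.13 (Dhx9). After the length and GC correction the sign turned for Ddx3y (0.10), Ddx41 (-0.045) and Ddx6 (0.13), which the added block put at 0.038, -0.020 and 0.080. Ddx50 was at -0.0042 with DESeq2 size factors, -0.0040 with DESeq2 and -0.039 with no filter. After thinning Dhx30 was at 5.2e-05 and Dhx9 at -0.050. With a library left out the sign turned for Ddx50 (-0.10 to 0.070), Ddx58 (-1.0 to 1.40), Ddx6 (-0.62 to 0.031), Dhx30 (-0.34 to 0.11), Ddx11 (-0.077 to 1.67), Dhx9 (-0.39 to 0.48) and Ddx21 (-0.12 to 0.67). The cause of the changes under settings other than the spike-in scaling was not tested.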
